A study of Homo sapiens with 10 samples.

Results

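The 10 genes described here encode cytokines known to be released by basal-like breast cancer cells. They are the interleukin genes IL6, IL1A, IL1B and IL11, the chemokine genes CXCL8, CXCL1, CXCL2 and CXCL3, the leukemia inhibitory factor gene LIF and the colony-stimulating factor gene CSF2. The genes were listed by name, and all 10 were found among 20098 protein-coding genes of chromosomes 1 to 22 and X in the GENCODE annotation of GRCh37 (hg19). For each gene, the window was the gene bounds widened by 50 kb on each side. The promoter was any annotated start site of the gene widened by 1 kb. A peak was counted when it shared at least 1 base with the window or the promoter.

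The cells were MDAMB231, an established human breast cancer line that lacks estrogen receptor, progesterone receptor and HER2 amplification, obtained from ATCC and grown untreated in DMEM with 5% FBS. ChIP-seq, which recovers DNA bound to a modified histone with an antibody, was performed for H3K4me3, H3K27Ac and H3K4me1 with 2 samples per mark and 1 input sample. FAIRE-seq, which recovers DNA poor in nucleosomes from cells fixed with 1% formaldehyde, was performed on 2 samples with 1 input sample. The authors combined both samples of an assay into 1 list of peaks, so no value below has a replicate error and no difference was tested.

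Cytokines of this group are small secreted proteins that call in white blood cells, induce fever and the acute-phase response, or act back on the secreting cell. Many of their genes are kept at a low level at rest and are induced through NF-kB and AP-1, transcription factors activated by interleukin-1 receptors and other danger signals. H3K4me3 marks the start sites of genes, H3K4me1 without H3K4me3 marks enhancers, H3K27Ac marks the promoters and enhancers in use, and FAIRE marks DNA cleared of nucleosomes.

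The histone lists held 18019 H3K4me3, 37495 H3K27Ac and 26771 H3K4me1 peaks. A histone peak carries the MACS score, on which a p of 1e-10 is 100, and scores of 3100 or more could not be ranked against each other. In the H3K4me3 list 3100 was the median score, and 56.8% of its peaks had 3100 or more, against 10.5% of H3K27Ac peaks. A FAIRE peak carries 1 value, which was read as its height although the file has no header that says so, with a median of 61.1 over the list. Neither value is a level of transcript or protein, and secretion was not measured in these assays. The genes are therefore named here as cytokine genes only.

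The promoters of marker genes were read as a description of the cell line. All 6 genes used by mesenchymal-like breast cancer cells (VIM, CD44, AXL, MSN, CAV1 and EGFR) had H3K4me3, H3K27Ac and FAIRE peaks at a promoter, against 36.5% of all protein-coding genes. Of 7 luminal or epithelial genes, 6 had H3K4me3, 4 had H3K27Ac, 4 had FAIRE and 2 had all of these, ERBB2 and EPCAM, a share close to that of all genes. Over all protein-coding genes, 67.3% had H3K4me3, 63.5% had H3K27Ac and 39.3% had FAIRE at a promoter. GATA3 had H3K4me3 and H3K27Ac peaks without FAIRE, and FOXA1 had H3K4me3 and FAIRE peaks without H3K27Ac. ESR1 and PGR, the hormone receptor genes, had H3K4me3 peaks with no H3K27Ac and no FAIRE peak, and CDH1, which encodes E-cadherin, had H3K27Ac and FAIRE peaks with no H3K4me3 peak. Among blood cell genes, PTPRC and CD3E had no peak of any list at a promoter. CD14 had an H3K4me3 peak alone and LYZ an H3K4me1 peak alone.

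Most of the cytokine promoters carried the marks of start sites and fewer had FAIRE peaks, an order also seen over all protein-coding genes. H3K4me3 peaks were found at the promoters of 9 of the 10 genes, all but LIF, against 67.3% of all protein-coding genes. H3K27Ac peaks were also found at 9 of 10, all but IL1A, against 63.5%. H3K4me1 peaks were found at 7 of 10, all but CXCL1, CXCL3 and LIF, against 20.0%. FAIRE peaks were found at 6 of 10, namely IL6, CXCL8, CXCL2, IL1A, IL1B and CSF2, against 39.3%. All 10 promoters had a peak of at least 1 list, whereas 29.3% of protein-coding genes had none.

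The combination of H3K4me3, H3K27Ac and FAIRE was found at 5 of the 10 promoters, those of IL6, CXCL8, CXCL2, IL1B and CSF2, against 36.5% of all protein-coding genes. The same 5 promoters also had H3K4me1, and 13.1% of all protein-coding genes had all 4 lists. Among genes with both H3K4me3 and H3K27Ac at a promoter, FAIRE was present at 5 of 8 cytokine genes and at 59.6% of 12317 protein-coding genes. The calls for H3K4me1 and FAIRE depended on the threshold. With MACS p at or under 1e-10, 3 of 10 promoters kept H3K4me1 (CXCL8, CXCL2 and IL1B), against 11.2% of all genes. With a FAIRE height at or above the median, 3 of 10 kept FAIRE (IL6, CXCL8 and CSF2), against 24.4%. IL6 was kept only by a peak of height 63.1 that began 1039 bp downstream of its canonical start site. The IL6 peaks nearer to that site, of heights 39.2 and 44.7, were below the median. With both thresholds together, H3K4me3, H3K27Ac and FAIRE stayed at 3 of 10 promoters (IL6, CXCL8 and CSF2). Of these, only CXCL8 also kept H3K4me1. The shares of all genes with these combinations were not counted at the stricter thresholds.

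**Figure D1:**
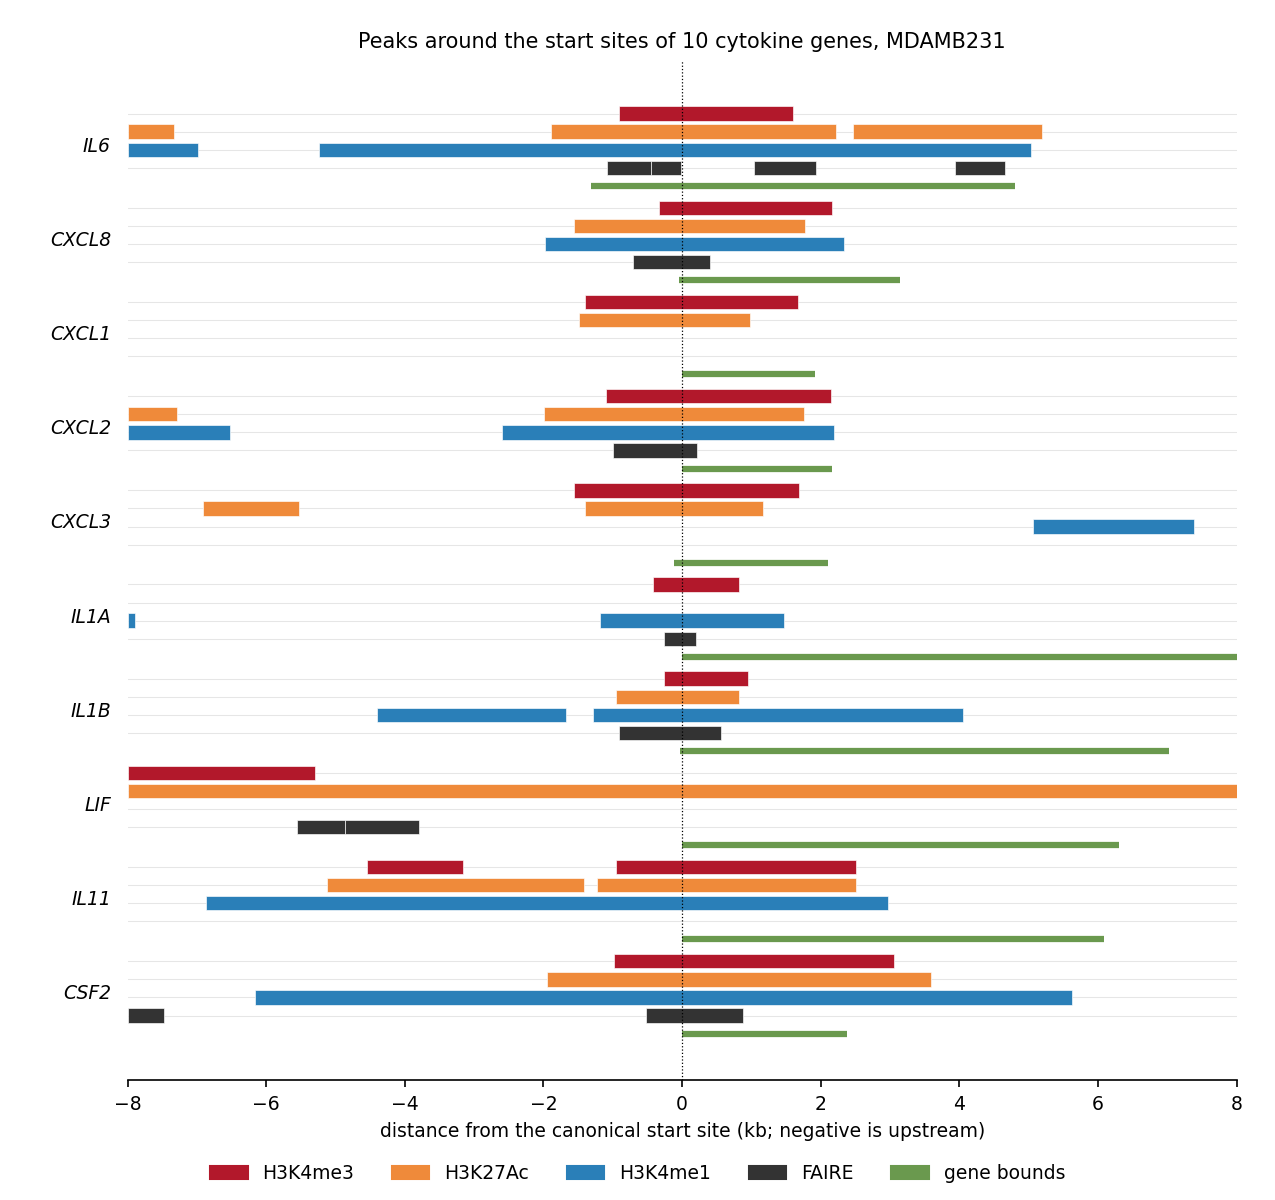
Peaks within 8 kb of the canonical start site of each gene, drawn in the direction of transcription; the horizontal axis is distance in kb, each bar is 1 peak cut off at the edge of the plot, and the green bar is the gene. H3K4me3 covers 9 of the 10 start sites, FAIRE bars are missing at CXCL1, CXCL3 and IL11, and at LIF an H3K27Ac peak runs across the whole plot.

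The chemokines of the cluster on chromosome 4 attract neutrophils. CXCL8 (interleukin-8) is the best known of them, and CXCL1, CXCL2 and CXCL3 are closely related proteins that share a receptor with it. The sequences before their start sites are shown because these genes differed in their promoter peaks and 3 of them are close in sequence. Each line gives the GRCh37 sequence from 250 bases before the canonical start site on the strand of the gene, without bases annotated as a UTR. Capitals mark matches to GGNNTTTCC (the NF-kB motif, both strands), TGANTCA (the AP-1 motif, both strands), here and in the sequences further on, and TATAAA was searched on the strand of the gene. In the 300 bases from 250 before a canonical start site, 6.42% of 19819 protein-coding genes held the NF-kB motif, 5.41% the AP-1 motif and 7.04% TATAAA. A match is a description of the letters, not a site of binding, and other forms of these motifs were not searched. CXCL8 is chr4:74606036-74606235, plus strand, CXCL1 is chr4:74734860-74735109, plus strand, CXCL2 is chr4:74964913-74965162, minus strand, and CXCL3 is chr4:74904407-74904656, minus strand.
CXCL8: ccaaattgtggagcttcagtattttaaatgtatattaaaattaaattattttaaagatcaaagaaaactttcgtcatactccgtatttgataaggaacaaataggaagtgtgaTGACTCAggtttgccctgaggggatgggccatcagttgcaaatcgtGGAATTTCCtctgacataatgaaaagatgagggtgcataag
CXCL1: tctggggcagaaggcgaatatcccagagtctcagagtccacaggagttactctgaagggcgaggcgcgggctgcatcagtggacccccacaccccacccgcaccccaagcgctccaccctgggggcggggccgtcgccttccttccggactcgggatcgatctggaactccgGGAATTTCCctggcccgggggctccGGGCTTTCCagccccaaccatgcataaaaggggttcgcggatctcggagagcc
CXCL2: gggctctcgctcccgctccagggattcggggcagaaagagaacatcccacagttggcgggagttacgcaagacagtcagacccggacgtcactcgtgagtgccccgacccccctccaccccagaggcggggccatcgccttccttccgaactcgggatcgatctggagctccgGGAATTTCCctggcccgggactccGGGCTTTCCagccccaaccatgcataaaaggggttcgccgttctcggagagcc
CXCL3: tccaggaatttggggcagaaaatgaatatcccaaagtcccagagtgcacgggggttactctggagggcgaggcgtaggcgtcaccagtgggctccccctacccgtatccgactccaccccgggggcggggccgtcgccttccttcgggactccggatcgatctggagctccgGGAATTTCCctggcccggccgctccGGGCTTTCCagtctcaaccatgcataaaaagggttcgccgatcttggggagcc

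All 4 sequences held an NF-kB match. CXCL1, CXCL2 and CXCL3 each held 2, the first at 77 or 78 bases and the second at 53 bases before the start site, and the aligned 250 bases of these genes were 70.1% to 81.4% identical, against 41.4% to 51.7% for the other 42 pairs of the 10 genes. CXCL8 held 1 NF-kB match at 91 bases and an AP-1 match at 137 bases before its start site, and a TATAAA match at 31 bases, which lies in the annotated UTR and is not printed. The window from 250 bases before to 50 after the canonical start site was 64.3% to 66.3% G and C in CXCL1, CXCL2 and CXCL3 and 39.3% in CXCL8, with a median of 63.7% over all protein-coding genes.

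CXCL8 had the most open promoter of the 10 genes by FAIRE height. Its FAIRE peak (chr4:74605582-74606684) covered the start site and had a height of 152, above 98.2% of the list. The H3K4me3 peak had a score of 926, the H3K27Ac peak 1165 and the H3K4me1 peak 310. The score was low for H3K4me3, where 926 lay at percentile 27.9, and high for H3K4me1, at percentile 86.3. Upstream of the gene were further acetylated and open elements. An H3K27Ac peak of 6522 bp with a score of 3100 was centered 34.4 kb upstream, inside an H3K4me1 peak of score 1307 at percentile 99.8, and held FAIRE peaks of heights 123 and 81.6. The noncoding gene ENSG00000289530 starts in that H3K4me1 peak, so the peak cannot be assigned to CXCL8 alone. A second H3K27Ac peak (score 2157) was centered 13.8 kb upstream with FAIRE peaks of heights 96.7 and 43.5.

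CXCL1 and CXCL3 differed from CXCL8 and CXCL2 in the absence of FAIRE and H3K4me1 peaks at the promoter. CXCL1 had an H3K4me3 peak of 3074 bp with a score of 3100, which is the median of that list. Its H3K27Ac peak had a score of 200, below the list median of 591. Its start site was 13.5 kb from any FAIRE peak and 11.7 kb from any H3K4me1 peak. CXCL3 likewise had H3K4me3 at 3100, and its H3K27Ac score was 1225. A FAIRE peak was found no closer than 17.7 kb and an H3K4me1 peak no closer than 5.06 kb. CXCL2, which lies next to CXCL3, had peaks of all 4 lists, with scores of 3100 for both H3K4me3 and H3K27Ac, 253 for H3K4me1 and a FAIRE height of 56.7, below the median of the list. The noncoding gene ENSG00000289241 also starts in these peaks, so they cannot be assigned to CXCL2 alone. Of the 50-base words that start within 1 kb of the canonical start site, 98.5% occurred once in the genome for CXCL1, 93.1% for CXCL2 and 93.3% for CXCL3. CXCL2, with the lowest share of the 10 genes, had peaks of all 4 lists, and the part of these shares in the peaks was not tested.

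As a unit, the cluster from CXCL8 to CXCL2 spans 359 kb, and its window 459 kb (chr4:74556236-75014913). It held 6 H3K4me3, 13 H3K27Ac, 18 H3K4me1 and 21 FAIRE peaks, which covered 3.17%, 9.43%, 15.1% and 4.74% of it. The H3K27Ac peaks with the highest scores lay near its ends, around CXCL8 and around CXCL3 and CXCL2. Between them, 121 kb that begin 144 kb from the first base of CXCL8 held no H3K27Ac peak. PF4, PPBP and CXCL5 start inside this stretch. Of the 5 other chemokine genes of the window (CXCL6, PF4V1, PF4, PPBP and CXCL5), which encode neutrophil attractants and platelet chemokines, 1 had an H3K4me3 peak at a promoter (PF4, score 92.5) and 0 had an H3K27Ac, H3K4me1 or FAIRE peak there. The 4 cytokine genes listed by name had H3K4me3 and H3K27Ac in 4 of 4 and H3K4me1 and FAIRE in 2 of 4. The shares of all protein-coding genes were 67.3% for H3K4me3, 63.5% for H3K27Ac, 20.0% for H3K4me1 and 39.3% for FAIRE, so FAIRE in 2 of 4 was near its share. One further H3K4me3 peak (score 516) covered the start of the pseudogene CXCL1P1.

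Of the 16 H3K4me1 peaks of the cluster window apart from H3K4me3, 7 overlapped both H3K27Ac and FAIRE peaks, 1 H3K27Ac alone, 4 FAIRE alone and 4 neither. Among all 22589 H3K4me1 peaks apart from H3K4me3, the shares of these classes were 59.4%, 11.1%, 13.3% and 16.2%. H3K27Ac was thus present at 8 of the 16, against 70.5% of the 22589. The window of CXCL1 held 6 such H3K4me1 peaks, of which 4 had a FAIRE peak but 1 had H3K27Ac, with a score of 149. The highest FAIRE peak there (height 119) lay 48.0 kb downstream of the CXCL1 start site under H3K4me1 of score 257, with no H3K27Ac. On the far side of CXCL2, an H3K27Ac peak of 8735 bp with a score of 3100 was centered 11.7 kb upstream of its start site and held 4 FAIRE peaks of heights 56.4 to 104. The neighboring gene MTHFD2L, a mitochondrial folate enzyme gene, starts inside that peak, so it cannot be assigned to CXCL2. The highest FAIRE peak of the CXCL2 window (height 119) was 17.8 kb upstream, inside MTHFD2L.

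**Figure D2:**
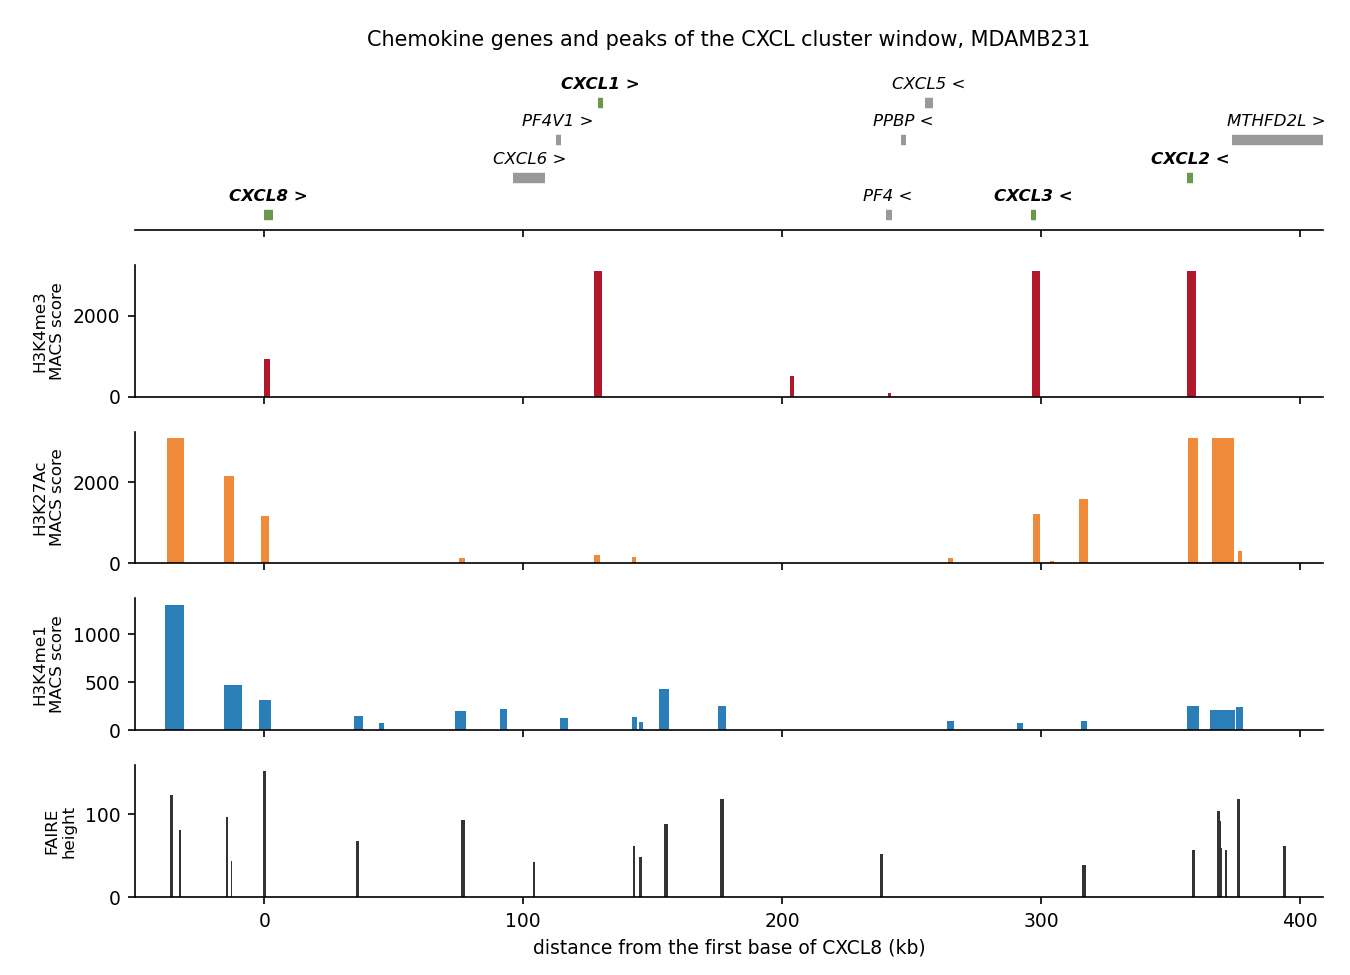
Genes (top; green and bold for the 4 listed cytokine genes, arrows give the strand) and peaks of the 459-kb CXCL cluster window, against distance in kb from the first base of CXCL8; bar width is the width of the peak and bar height the MACS score or, for FAIRE, the peak height. The tallest H3K27Ac bars stand near the ends and the stretch of 121 kb in the middle has none.

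IL6, LIF and IL11 signal through the shared receptor chain encoded by IL6ST, and these genes had unlike patterns. IL6 drives the acute-phase response and activates STAT3. Its sequence before the canonical start site, less the bases annotated as a UTR (chr7:22766569-22766765, plus strand), is shown with its NF-kB match in capitals.
IL6: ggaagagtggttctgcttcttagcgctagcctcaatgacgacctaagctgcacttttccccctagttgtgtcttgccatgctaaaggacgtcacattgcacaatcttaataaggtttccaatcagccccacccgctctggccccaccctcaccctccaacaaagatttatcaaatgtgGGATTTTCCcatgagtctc

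IL6 held an NF-kB match at 72 bases before the start site. The promoter had peaks of all 4 lists, with 853 for H3K4me3, 2903 for H3K27Ac and 93.7 for H3K4me1. The 1 kb around its start sites met 3 FAIRE peaks, with heights of 39.2, 44.7 and 63.1. The last began 1039 bp downstream of the canonical start site. The H3K27Ac score was thus high, at percentile 88.4, while the FAIRE peaks were low or close to the median. Transcripts of STEAP1B, on the other strand, and of IL6-AS1 also start under these histone peaks, so the peaks cannot be assigned to IL6 alone. A separate element lay upstream, where an H3K27Ac peak of score 3104 (chr7:22756109-22759491) was centered 9.02 kb from the start site with H3K4me1 of score 386 and the highest FAIRE peak of the window, at 92.5. Another H3K4me1 peak (score 470) with H3K27Ac and FAIRE overlap was centered 53.4 kb upstream and reached past the edge of the window.

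LIF, which sustains stem cell self-renewal and acts on many tissues, had the window most covered by H3K27Ac, H3K4me1 and FAIRE peaks among the 10 genes. H3K27Ac peaks covered 55.8% of it and FAIRE peaks 18.8%, and 0 of the 20098 protein-coding genes had a larger share of their window covered in either list. For H3K4me1 the share was 39.8%, and 10 genes had more. The window held 20 FAIRE peaks, 14 downstream and 6 upstream of the promoter, and all 20 overlapped H3K27Ac, as did 81.4% of the FAIRE peaks in the windows of the 10 genes and 71.8% of the whole list. The highest FAIRE peak (height 133) was centered 50.6 kb downstream of the start site.

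The LIF promoter itself carried 1 of the 4 marks. An H3K27Ac peak of 25669 bp (chr22:30630082-30655750, score 3100) ran across the whole gene and was wider than 99.9% of its list. The noncoding genes LIF-AS1 and LIF-AS2 also start in it. H3K4me3, H3K4me1 and FAIRE peaks were absent within 1 kb of both start sites. The nearest FAIRE peak was 3.80 kb and the nearest H3K4me3 peak 5.29 kb upstream. That H3K4me3 peak was 6846 bp wide with a score of 3100, and no annotated start site of any gene lay in it. Across all protein-coding genes, 2.19% had H3K27Ac without H3K4me3 at a promoter. None of the 50-base words around the LIF start site occurred elsewhere in the genome (100% found once). OSM, the neighboring gene of a related cytokine, had no peak of any list at its promoter.

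The 3 protein-coding genes on other chromosomes with the most similar shares of the window covered by the 4 lists were KLF6, NRP1 and CCN1. They were 8.51, 12.8 and 12.9 percentage points from LIF in Euclidean distance. For KLF6, H3K27Ac covered 47.8% and FAIRE 18.0% of the window.

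IL11, which supports blood platelet formation and is released by bone-tropic tumor cells, had H3K4me3 with a score of 3100 and H3K27Ac with a score of 1079 at its promoter, and its nearest FAIRE peak was 14.4 kb away. Its H3K4me1 peak was 9835 bp wide with a score of 58.3, at percentile 10.7 of the list, and TMEM190 also starts in it. An AP-1 match lay 96 bases before its start site. Its window is rich in genes, and 4 of its 6 FAIRE peaks and 4 of its 6 H3K4me3 peaks lay at promoters of other genes, among them KMT5C, RPL28 and UBE2S. The highest FAIRE peak of the window (height 152) was at KMT5C, 30.9 kb downstream of the IL11 start site. The window held 0 H3K4me1 peaks apart from H3K4me3.

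IL1A and IL1B encode the interleukin-1 cytokines, which activate NF-kB in the cells they reach. They are neighbors on chromosome 2, and their windows overlap, so peaks between them count for both. Both promoters had low H3K4me3 scores. They were 126 for IL1A and 155 for IL1B, at percentiles 11.3 and 13.3 of the list. IL1B had an H3K27Ac peak of score 101, and IL1A had none, with the nearest 8.14 kb upstream of its start site. FAIRE peaks covered both start sites with heights of 47.5 and 55.6, below the median. The H3K4me1 score at IL1B was 322, a high value at percentile 87.2 of the list, and that at IL1A was 85.1, at percentile 33.9. Across all protein-coding genes, 6.05% had H3K4me3 without H3K27Ac at a promoter, as IL1A did.

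The surroundings of these genes were widely covered by H3K4me1 and FAIRE peaks, but not by H3K4me3 peaks. H3K4me1 covered 23.9% of the IL1A window and 30.4% of the IL1B window, and 207 and 60 of 20098 protein-coding genes had more. FAIRE covered 8.49% and 9.37%, and 239 and 135 genes had more. H3K4me3 covered 4.79% and 2.28%, with a median of 3.62% over all protein-coding genes. The widest H3K27Ac peak of the IL1B window, 6527 bp with a score of 3147, was centered 42.8 kb upstream of its start site and held FAIRE peaks of heights 64.8 and 84.1. Between the genes, H3K27Ac peaks of scores 1267, 504 and 2779 were centered 9.65, 19.8 and 27.9 kb upstream of the IL1A start site, with FAIRE heights of 67.5, 51.6 and 84.6. The last of these was the highest FAIRE peak of both windows. On the other side of IL1A, the widest H3K27Ac peak of its window (3619 bp, score 1676) lay at the promoter of CKAP2L, a mitotic spindle gene.

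CSF2 encodes GM-CSF, which drives the growth and activation of granulocytes and macrophages. The 250 bases before its start site (chr5:131409232-131409481, plus strand) and the central 300 bases of the highest FAIRE peak of its window (chr5:131430104-131430403, plus strand) are shown because this peak was the highest of all 70 in the windows of the 10 genes. The capitals mark an NF-kB match, and the sequence before the start site held no match to the motifs in the form searched.
CSF2 promoter: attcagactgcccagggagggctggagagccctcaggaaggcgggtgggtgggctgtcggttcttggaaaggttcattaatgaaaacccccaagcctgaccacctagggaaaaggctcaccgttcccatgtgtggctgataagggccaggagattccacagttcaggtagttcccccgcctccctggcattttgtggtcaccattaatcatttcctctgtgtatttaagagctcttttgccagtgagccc
CSF2 downstream FAIRE peak: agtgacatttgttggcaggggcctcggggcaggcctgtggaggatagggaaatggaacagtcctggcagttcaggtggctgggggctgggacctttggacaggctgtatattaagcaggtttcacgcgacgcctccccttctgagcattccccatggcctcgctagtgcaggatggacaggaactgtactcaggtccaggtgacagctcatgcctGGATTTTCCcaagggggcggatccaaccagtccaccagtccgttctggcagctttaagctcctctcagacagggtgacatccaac

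The CSF2 promoter had peaks of all 4 lists, with scores of 3100 for H3K4me3 and H3K27Ac, 74.2 for H3K4me1 and a FAIRE height of 93.0. Downstream of it lay 4 FAIRE peaks, centered 12.7, 16.1, 20.8 and 29.7 kb from the start site, with heights of 114, 156, 174 and 85.7. All 4 overlapped H3K27Ac peaks, of scores 850, 363, 3100 and 3100, and none overlapped H3K4me1. In the whole FAIRE list, 71.8% overlapped H3K27Ac and 54.9% H3K4me1. The height of 174 lay above 99.5% of the FAIRE list. The widest H3K27Ac peak, 6103 bp, was centered 29.0 kb downstream. The window held 1 H3K4me1 peak, of 11784 bp, at the promoter itself. IL3, the neighboring gene of a growth factor of blood cells, had no peak of any list at its promoter.

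**Figure D3:**
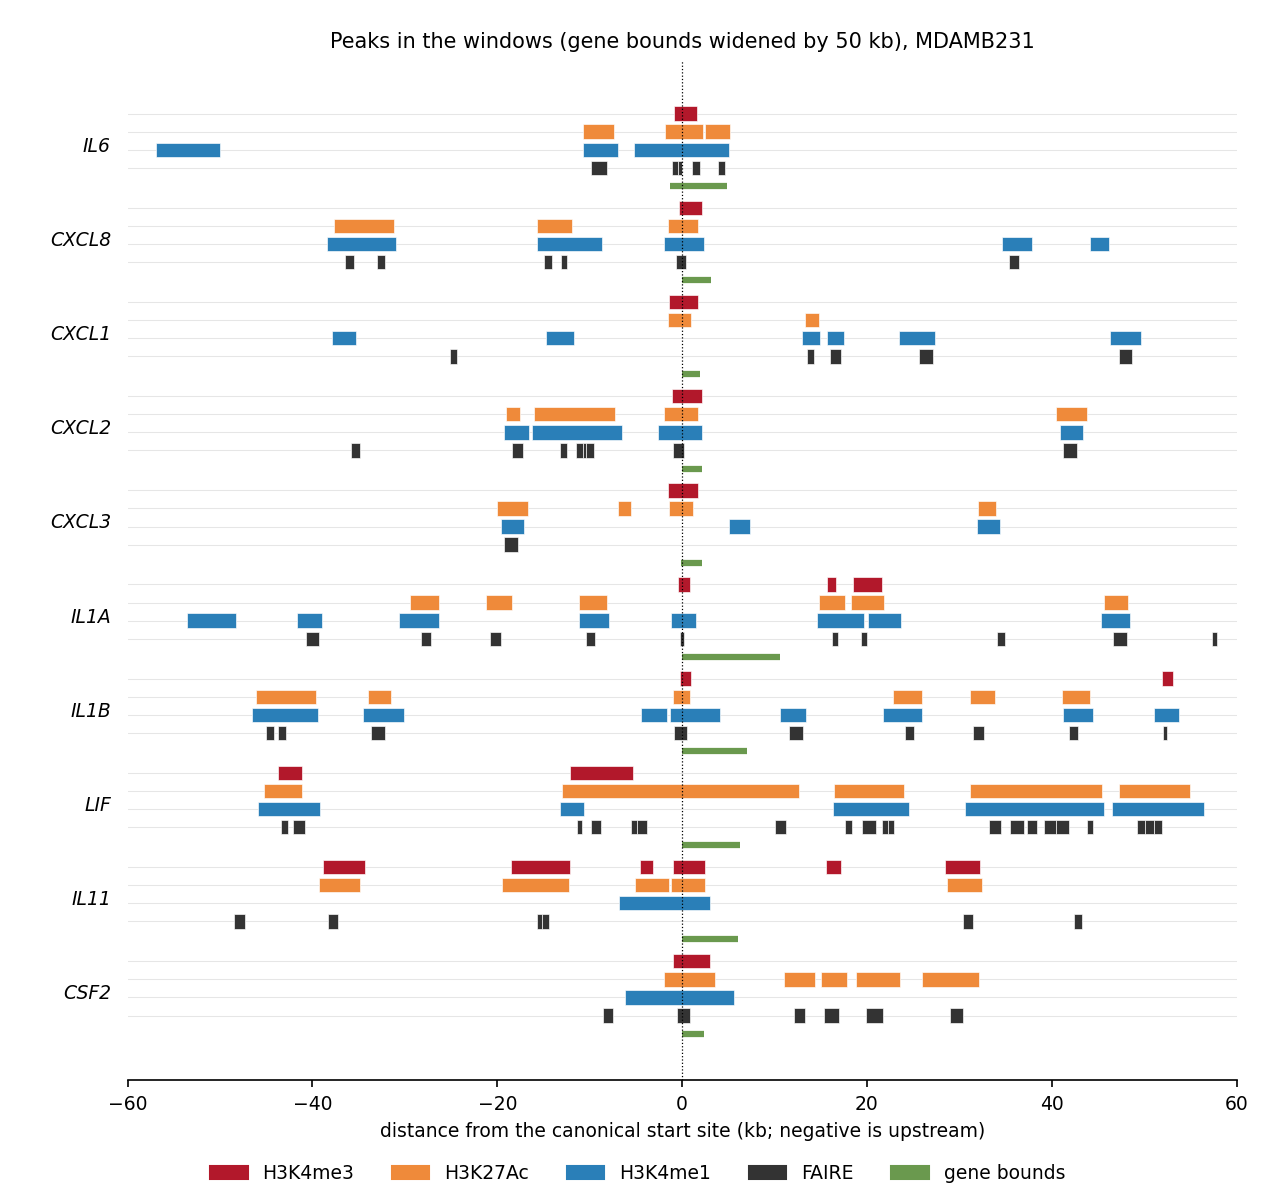
Peaks in the window of each gene, drawn in the direction of transcription against distance in kb from the canonical start site; each bar is 1 peak and the green bar is the gene. LIF has 20 FAIRE peaks, each of which overlaps an H3K27Ac peak, and the 4 FAIRE peaks downstream of CSF2 overlap H3K27Ac and not H3K4me1.

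Counted once each, the windows held 18 H3K4me3, 39 H3K27Ac, 38 H3K4me1 and 70 FAIRE peaks. Of the H3K4me3 peaks, 9 were at promoters of the listed genes and 6 at other protein-coding genes, together 83.3%, against 71.0% of the list at a protein-coding promoter. Of the FAIRE peaks, 54 of 70 (77.1%) lay away from every protein-coding promoter, near the 80.6% of the list. By share of the window covered, H3K4me1 was above the median of all protein-coding genes in 10 of 10 windows and H3K27Ac and FAIRE in 9 of 10, the exceptions being CXCL1 for H3K27Ac and CXCL3 for FAIRE. H3K4me3 was above it in 4 of 10. For IL11 and CSF2, the H3K4me1 share came from 1 wide peak each, of scores 58.3 and 74.2. Coverage was not counted again at MACS p at or under 1e-10, which neither of these peaks passes. The medians were 17.8% for the 10 genes and 2.44% for all genes with H3K4me1, 16.6% and 6.17% with H3K27Ac, 6.64% and 1.84% with FAIRE, and 3.18% and 3.62% with H3K4me3. The 4 chemokine genes and the 2 interleukin-1 genes are neighbors, so these windows are not independent of each other.

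**Figure D4:**
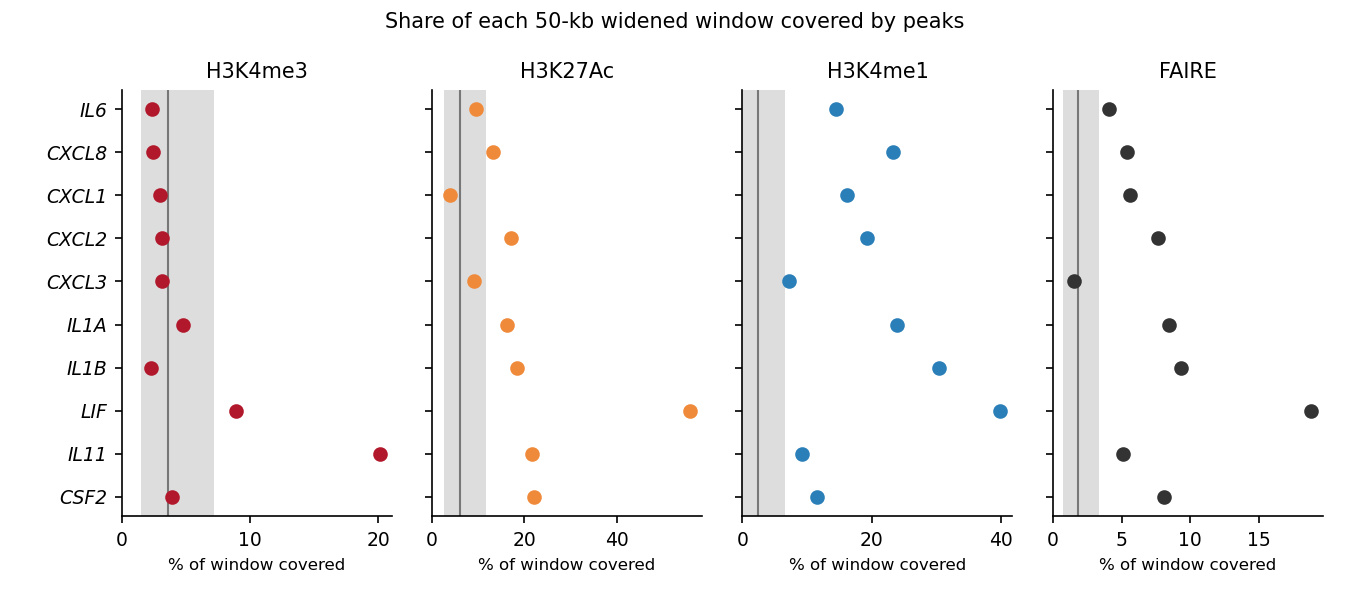
Percent of each window covered by peaks of the 4 lists, 1 point per gene; the gray band runs from the lower to the upper quartile of 20098 protein-coding genes and the line is their median. All 10 points lie right of the line for H3K4me1 and 4 of 10 for H3K4me3, and LIF is farthest right for H3K27Ac, H3K4me1 and FAIRE.

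Enhancers were read from H3K4me1 peaks apart from H3K4me3, with not a single base in common. The windows held 27 of them. Of these, 17 (63.0%) overlapped H3K27Ac, against 70.5% of the 22589 such peaks in the whole genome, and 16 (59.3%) overlapped both H3K27Ac and FAIRE, against 59.4%. A further 5 (18.5%) were open without H3K27Ac, against 13.3%, and 5 had neither, against 16.2%. The share with both H3K27Ac and FAIRE was thus near that of all such peaks. By gene, the counts were 6 at CXCL1 and IL1B, 4 at CXCL8 and IL1A, 3 at CXCL2, CXCL3 and LIF, 2 at IL6 and 0 at IL11 and CSF2. H3K27Ac peaks with FAIRE but without H3K4me1, such as those downstream of CSF2, were not counted here.

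The motifs were counted in the 300 bases around each canonical start site and at the center of each FAIRE peak. An NF-kB match was present at 5 of the 10 start sites (IL6, CXCL8, CXCL1, CXCL2 and CXCL3), against 6.42% of 19819 protein-coding genes with a canonical start site. The sequences of CXCL1, CXCL2 and CXCL3 before the start site were 70.1% to 81.4% identical, so their matches are not independent of each other. An AP-1 match was present at 3 (CXCL8, IL1A and IL11), against 5.41%. TATAAA was present at 3 (CXCL8, IL1A and LIF), against 7.04%. These matches began 31, 239 and 29 bases before the start site. At FAIRE centers, NF-kB matches were found in 13 of the 70 peaks (18.6%), against 6.33% of the list, and AP-1 matches in 24 (34.3%), against 39.2%. Of the 13, 6 were in the window of LIF, out of 20, and 3 in that of CXCL8, out of 6. The sequences below are the central 300 bases of the highest FAIRE peaks of the CXCL8 and LIF windows outside promoters, shown as open elements, with 2 AP-1 matches in the first and 1 in the second. They are chr4:74570161-74570460, plus strand, of height 123, and chr22:30592033-30592332, plus strand, of height 133.
CXCL8 upstream FAIRE peak: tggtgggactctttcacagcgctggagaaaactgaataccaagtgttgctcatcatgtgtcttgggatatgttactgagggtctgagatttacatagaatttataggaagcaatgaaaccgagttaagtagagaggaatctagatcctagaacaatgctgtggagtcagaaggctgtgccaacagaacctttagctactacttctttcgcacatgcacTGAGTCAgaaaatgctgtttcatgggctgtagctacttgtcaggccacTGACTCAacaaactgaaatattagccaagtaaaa
LIF downstream FAIRE peak: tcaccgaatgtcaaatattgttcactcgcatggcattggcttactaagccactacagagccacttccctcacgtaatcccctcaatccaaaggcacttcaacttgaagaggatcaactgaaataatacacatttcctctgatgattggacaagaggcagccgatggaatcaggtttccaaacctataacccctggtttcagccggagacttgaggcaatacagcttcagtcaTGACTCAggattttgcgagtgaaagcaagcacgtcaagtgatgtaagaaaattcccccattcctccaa

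The receptors of these cytokines were read in the same way. Of 9 receptor genes, 6 had H3K4me3 and H3K27Ac at a promoter and 4 also had FAIRE, namely IL6ST, IL1R1, IL1RAP and LIFR. Both marks were found at 12317 of the 20098 protein-coding genes, and both with FAIRE at 36.5%. The same 4 receptor genes also had H3K4me1, which was found at 20.0% of all protein-coding genes, and all 4 lists were found at 13.1%. IL6ST, the chain shared by IL6, LIF and IL11, had scores of 3100 for both marks. IL6R and IL11RA, which give IL6 and IL11 their specificity, had both marks without FAIRE. CXCR1 and CXCR2, the receptors of the neutrophil-attracting chemokines, and CSF2RB, the signaling chain of the GM-CSF receptor, had no peak of any list. The decoy receptor gene IL1R2 and the antagonist gene IL1RN also had none, as was found for 29.3% of all protein-coding genes.

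Of 24 other secreted inflammatory factors, 7 had H3K4me3, 7 had H3K27Ac, 5 had H3K4me1 and 4 had FAIRE at a promoter, and 14 had no peak of any list. Over all protein-coding genes the shares were 67.3%, 63.5%, 20.0% and 39.3%, with 29.3% free of peaks. IL18, IL15 and CLCF1 had H3K4me3, H3K27Ac and FAIRE together. CLCF1, a cytokine of the IL6 family, had scores of 3100 for both marks and a FAIRE height of 118. CSF1 had H3K4me3 and H3K27Ac at 3100 without FAIRE, and IL7 had both without FAIRE. IL24 had H3K27Ac and FAIRE without H3K4me3, CSF3 had H3K27Ac alone, CXCL16 and IL32 had H3K4me3 alone, and CCL20 had H3K4me1 alone. The promoters of CCL2, CCL5, CCL7, CCL8, CXCL5, CXCL6, CXCL10, CXCL11, CXCL12, IL33, OSM, TNF, TSLP and IL3 had no peak. Promoters free of peaks thus numbered 14 of 24 here and 0 of 10 among the cytokine genes named at the start. The share of all protein-coding genes was 29.3%. The genes were chosen with earlier results of these data known, and the difference was not tested.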

How the data were processed

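Peaks from 10 samples of MDAMB231 were analysed as 4 deposited lists. For these the authors used BWA with GRCh37 (hg19), dropped duplicate and poorly mapped reads with Samtools, and ran MACS on the ChIP reads with its defaults and the input as control. Each MACS score was taken as deposited and equals the log10 of the p-value times 10 with its sign turned. FAIRE peaks came from FindPeaks with the input as control, and the value deposited with each was read as the height of the read signal, which the file does not state. The depth of reads was not used here. Lists were assigned to assays by their names, and their starts were read as counted from 0.

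Peaks were joined to GENCODE v44lift37 genes with pandas 2.3.3 and numpy 2.4.6 where they had 1 base or more in common, and the code was checked on simulated data with bedtools 2.31.1. Shares over all protein-coding genes were counted in the same way and stand beside the counts in place of a test. Percentiles count tied values at their middle. Promoter sequences were aligned globally with Biopython 1.88, and identity is per column of the alignment, gaps included. The genes, marker lists and receptor lists were chosen with earlier results of these data known. The peaks named are, at each promoter, the peak of each list and, in each window, the highest FAIRE peak, the widest H3K27Ac peak and H3K4me1 peaks apart from H3K4me3. Other peaks, the pseudogene and genes named from larger counts were chosen after their values were seen. The alternatives were other promoter and window widths, the center of the peak in place of any base, MACS p at or under 1e-10 and FAIRE heights at or above the median. Some of the marker genes and promoter sequences examined are not reported here.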

Additional observations from a re-analysis of the deposited data

How the results depend on the processing

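Of 51 alternative values for 13 counts, 38 stayed within 1.5 times the main count. The promoter counts of 9, 9, 7 and 6 genes for H3K4me3, H3K27Ac, H3K4me1 and FAIRE were the same, with the same genes, for start sites widened by 500 bp or 2 kb or taken only at the 5 prime end of the gene. At MACS p at or under 1e-10, the H3K4me1 promoter count fell from 7 to 3 and the H3K4me1 peaks in the windows from 38 to 25. At FAIRE heights at or above the median, FAIRE promoters fell from 6 to 3, FAIRE peaks in the windows from 70 to 41 and those in the CXCL cluster window from 21 to 13, and with both thresholds together the promoters with H3K4me3, H3K27Ac and FAIRE fell from 5 to 3. The gene bounds widened by 10 kb held 18 H3K27Ac, 16 H3K4me1 and 21 FAIRE peaks, and 12 FAIRE peaks for the cluster. Widened by 100 kb, they held 28 H3K4me3, 59 H3K27Ac and 58 H3K4me1 peaks. Narrower windows and stricter thresholds hold fewer peaks by construction.

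Pairing of samples was not possible, since the samples of an assay were combined into 1 list. The lists give no error between samples, and a peak missing from a list can be absent or below the threshold of the authors. Scores of 3100 or more do not rank peaks. Peaks near a gene were not linked to it by any measurement here, and windows of neighboring genes share peaks. The p-value and height scales of different lists are not comparable with each other.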
